A study of Mus musculus with 6 samples.

Results

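The cytochrome P450 genes of mouse colon are described here in lenvatinib-treated and DMSO-treated animals. Members were all symbols of the form Cyp, a family number, a subfamily letter and a gene number, which 70 of the 25339 genes in the deposited table had. These 70 genes fell into 14 CYP families, among them 35 CYP2 genes, 13 CYP4 genes and 6 Cyp3a genes, which were set apart because CYP3A is the principal drug-metabolising subfamily in people. Of 72 symbols that start with Cyp and a digit, Cyp51 and the antisense transcript Cyp4x1os did not match.

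RNA was sequenced from colon of mice given lenvatinib, an oral inhibitor of tyrosine kinases that include the receptors of VEGF and FGF, or DMSO, its solvent. Each group had 3 libraries. The sources used here do not give strain, age, sex, dose, duration of treatment or any induction of colitis. Libraries of a group are named biological replicates without being tied to animals, so a p-value here reflects library-to-library spread, which may be technical.

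P450 enzymes are haem monooxygenases, which insert an oxygen atom into drugs, fatty acids, sterols, retinoids and vitamin D. Most sit in the endoplasmic reticulum and take electrons from the reductase encoded by Por, while a few, such as those encoded by Cyp27a1 and Cyp11a1, are mitochondrial. In the gut wall, epithelial P450 enzymes oxidise absorbed compounds before they reach the liver, and nuclear receptors such as PXR and the aryl hydrocarbon receptor control many of their genes. In people lenvatinib is itself oxidised by CYP3A and by aldehyde oxidase.

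Depth was 37660528 to 39287783 reads in genes per library, recovered from the steps of the values. Libraries 2 and 3 of each group were closely alike, and whether they came from separate animals is not given in the labels. If they did not, each group would hold 2 independent samples in place of the n = 3 libraries used for means and SDs here. The SD of their log2 differences over genes was 0.113 between lenvatinib 2 and 3 and 0.104 between DMSO 2 and 3, against 0.292 to 0.477 for the other pairs. Lenvatinib 1 was no nearer to lenvatinib 2 and 3 (0.426 to 0.428) than to the DMSO libraries (0.344 to 0.389). DMSO 1 also stood apart. The Y-linked genes Ddx3y, Kdm5d and Uty measured 6.54, 5.92 and 2.19 FPKM there and were listed at 0 in the other 5 libraries. Xist, transcribed from the inactive X chromosome, measured 0.00147 FPKM there against 15.9 to 19.8 FPKM elsewhere. By these genes DMSO 1 was male and the other 5 libraries were female. The DMSO group thus mixed the sexes and the lenvatinib group did not, and only the fit without DMSO 1 compares female libraries alone. Its controls are DMSO 2 and 3, the closely alike pair that may not be separate animals. The colon label was checked with Car1, a carbonic anhydrase of colonocytes, which measured 7590 to 10357 FPKM in lenvatinib libraries and 7823 to 9567 FPKM in DMSO libraries. The distal colon marker Hoxb13 was listed at 0 in all libraries except DMSO 2, where it measured 0.0184 FPKM. The liver marker Alb did not exceed 0.0996 FPKM in any library. Fabp6, a gene of the ileum, differed widely, with 148 to 161 FPKM in lenvatinib libraries and 1.44 to 2.28 FPKM in DMSO libraries. Small intestine markers are given below, and whether both groups held the same stretch of gut was not tested.

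P450 transcripts were more often higher than lower in lenvatinib colon. Levels are FPKM (fragments per kilobase of gene, scaled to library size). A log2 fold change is the mean log2(FPKM + 1) of the lenvatinib libraries minus that of the DMSO libraries, so that low genes show too small a change. Of the 70 members, 25 averaged at least 1 FPKM and were tested with limma among 11774 genes. Of these 25, 5 passed a Benjamini-Hochberg adjusted p of 0.05 and all 5 were higher, while 2.03% of all tested genes passed, 1.1% higher and 0.934% lower. At an unadjusted p under 0.05 limma put 14 of the 25 higher and 1 lower, against 7.49% and 14.5% of all genes. Voom on the recovered reads passed 5 higher and 0 lower, against 1.22% and 1.0% of all genes. Cyp2d26, Cyp2c66, Cyp4f14, Cyp4f40 and Cyp2s1 were the 5, with lenvatinib means 1.39 to 2.08 times the DMSO means. The log2 fold change was above 0 in 20 of 25 members (80.0%), with a median of 0.58, against 36.1% of all tested genes and a median of -0.07. The 3 lenvatinib libraries all lay above the 3 DMSO libraries in 11 of 25 members, against 10.0% of all genes, and no member lay wholly below, against 17.5% of all genes. Among the 25, Cyp2c68 and Cyp4f15 had a DMSO mean under 1 FPKM and entered the test through their lenvatinib level. No tested member entered through its DMSO level with a lenvatinib mean under 1 FPKM.

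These calls depended on which libraries were counted. Averaging libraries 2 and 3 of each group left 0 of the 5 calls, and 0.0255% of all genes passed. Treating them as a random block left Cyp2d26 alone, with a limma adjusted p of 0.0227, and 0.391% of all genes passed. Leaving out DMSO 2, DMSO 3, lenvatinib 2 or lenvatinib 3 also left Cyp2d26 alone, with limma adjusted p-values of 0.0334 to 0.0469. Of all genes, 0.425, 0.382, 0.493 and 0.484% passed in these fits, named in the same order. Without lenvatinib 1, 20 of the 25 members passed, 18 higher and 2 lower, against 38.0% of all genes, 9.85% higher and 28.2% lower. Without DMSO 1, 7 members passed, against 2.29% of all genes, the added ones being Cyp27a1 and Cyp2d34. The fit without lenvatinib 1 leaves lenvatinib 2 and 3 in their group, and that without DMSO 1 leaves DMSO 2 and 3. Each of these pairs was closely alike and may not be separate animals. Part of the spread behind the p-values of both fits may therefore be technical.

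**Figure D1:**
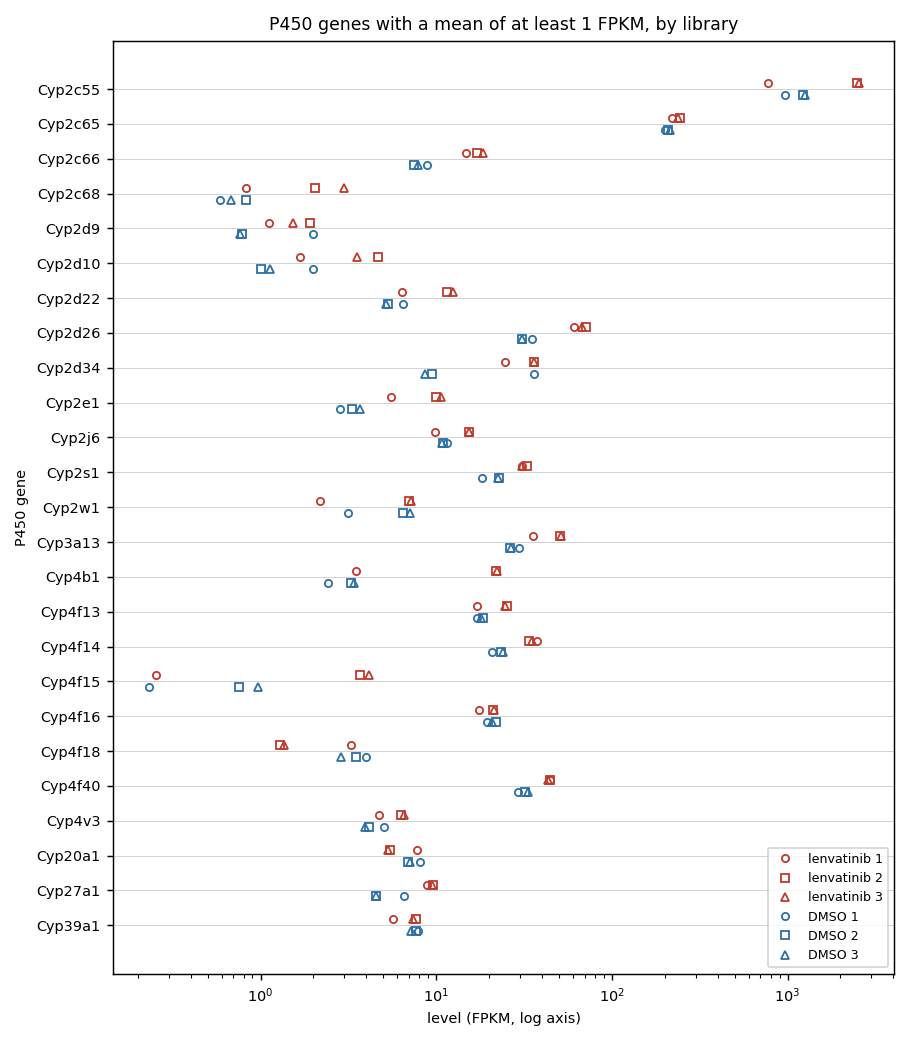
Level of each of the 25 tested P450 genes in FPKM on a log axis, in the 3 lenvatinib libraries (red) and the 3 DMSO libraries (blue), with a symbol for each library number. Cyp2c55 lies at or above 770 FPKM in every library, and libraries 2 and 3 of a group mostly lie close together with library 1 apart.

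Cyp2c55 was the most abundant P450 transcript in every library. It encodes a mouse enzyme that hydroxylates arachidonic acid and is known to be abundant in colon. Summed over the 70 members, P450 levels were 1341, 3189 and 3232 FPKM in lenvatinib 1, 2 and 3, against 1449, 1689 and 1724 FPKM in DMSO 1, 2 and 3. The sum in lenvatinib 1 was under every DMSO library, whereas in lenvatinib 2 and 3 it was above them. Cyp2c55 alone made up 57.5, 78.3 and 78.8% of that sum in lenvatinib libraries and 66.7, 72.5 and 72.6% in DMSO libraries. With Cyp2c55 left out, the sums were 570, 691 and 686 FPKM in lenvatinib libraries and 482, 465 and 472 FPKM in DMSO libraries, which do not overlap. P450 genes took 0.312, 0.708 and 0.717% of recovered reads in lenvatinib libraries and 0.329, 0.380 and 0.387% in DMSO libraries. In bulk tissue such as this, fewer cells of a type and less RNA per cell cannot be told apart.

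**Figure D2:**
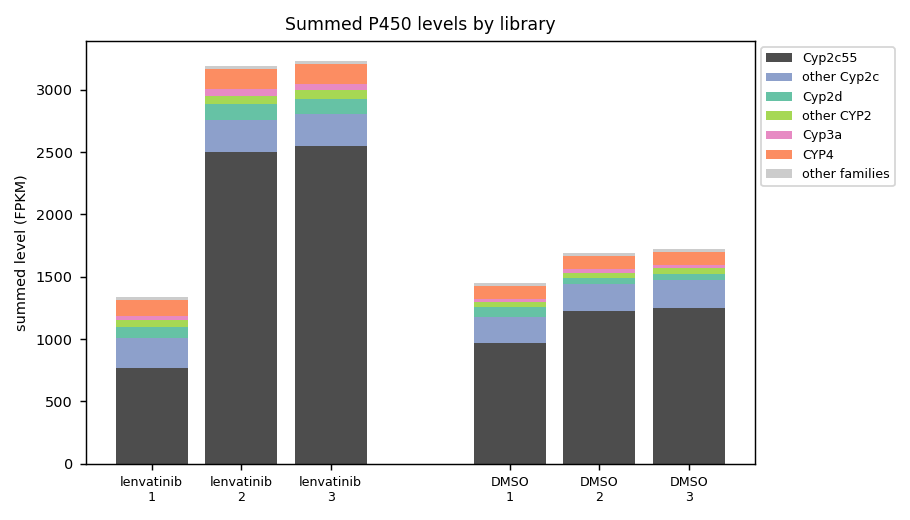
Summed FPKM of the P450 genes in each library, stacked by group, lenvatinib 1 to 3 on the left and DMSO 1 to 3 on the right. Cyp2c55 fills most of every bar, and the bars of lenvatinib 2 and 3 (3189 and 3232 FPKM) stand above those of lenvatinib 1 (1341 FPKM) and of the DMSO libraries (1449 to 1724 FPKM).

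Cyp3a transcripts came almost wholly from Cyp3a13. This gene encodes a mouse CYP3A enzyme found outside the liver as well as in it. Cyp3a13 measured 35.7, 50.9 and 51.4 FPKM in lenvatinib libraries, against 29.5, 26.2 and 26.6 FPKM in DMSO libraries. All lenvatinib libraries lay above all DMSO libraries, with lenvatinib 1 closest to them. The means were 46.0 ± 8.94 and 27.4 ± 1.80 FPKM (SD, n = 3 each), a ratio of 1.68. The log2 fold change of 0.71 (SE 0.149) did not pass, with a limma adjusted p of 0.0809. Without lenvatinib 1 it was 0.88 with a limma adjusted p of 0.000874, in the fit that passed 38.0% of all genes.

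The other 5 Cyp3a genes were under the filter. Cyp3a25, a gene of mouse liver and small intestine, measured 0.104, 0.767 and 0.632 FPKM in lenvatinib libraries, from 8, 60 and 49 reads, and was listed at 0 in the 3 DMSO libraries. The groups did not overlap. An exact permutation test gave p = 0.1, the smallest that 3 libraries against 3 allow. At a filter of 0.1 FPKM its limma adjusted p was 0.162. Cyp3a11, the PXR-responsive Cyp3a of mouse liver, measured 0.0251 FPKM in lenvatinib 3 and was listed at 0 in the other 5 libraries. Cyp3a44, Cyp3a57 and Cyp3a59 did not exceed 0.0386 FPKM in any library.

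In the CYP2 family 13 of 35 members were tested, 3 rose and none passed as lower, against 1.1% and 0.934% of all genes. Cyp2d26 belongs to the mouse Cyp2d cluster on chromosome 15, whose genes are relatives of the human drug-metabolising gene CYP2D6. Its level was 60.7, 70.8 and 68.0 FPKM in lenvatinib libraries, against 35.2, 30.9 and 30.9 FPKM in DMSO libraries. Every lenvatinib library lay above every DMSO library. Cyp2d26 averaged 66.5 ± 5.21 FPKM in lenvatinib colon and 32.3 ± 2.50 FPKM in DMSO colon (SD, n = 3 each), a ratio of 2.06. The log2 fold change was 1.02 (SE 0.0863), with a limma adjusted p of 0.00509, the lowest among the members.

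The other 4 tested Cyp2d genes did not pass, and DMSO 1 was the highest DMSO library in each. Cyp2d34 measured 24.8, 36.2 and 36.1 FPKM in lenvatinib libraries, against 35.8, 9.46 and 8.69 FPKM in DMSO libraries. DMSO 1 sat among the lenvatinib libraries, and the log2 fold change of 1.09 (limma adjusted p = 0.272) became 1.71 without it (limma adjusted p = 0.0274). Cyp2d9, which is male-predominant in mouse liver, measured 1.12, 1.92 and 1.53 FPKM in lenvatinib libraries, against 1.98, 0.780 and 0.762 FPKM in DMSO libraries, with a limma adjusted p of 0.526. DMSO 1 is the library with Ddx3y reads, and the part of that library's origin in these Cyp2d levels was not tested. Cyp2d10 measured 1.69, 4.66 and 3.55 FPKM in lenvatinib libraries, against 1.98, 1.01 and 1.13 FPKM in DMSO libraries (limma adjusted p = 0.198). Cyp2d22 measured 6.38, 11.5 and 12.5 FPKM in lenvatinib libraries, against 6.50, 5.34 and 5.19 FPKM in DMSO libraries (limma adjusted p = 0.179). In both genes lenvatinib 1 fell within the DMSO range and lenvatinib 2 and 3 lay above it. Of the 50-base stretches of the longest transcript, 39.8% in Cyp2d10 and 28.3% in Cyp2d9 also occur in other P450 transcripts, against 10.5% in Cyp2d26, so the split of reads among the first pair and their relatives is uncertain.

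The Cyp2c genes, which lie together on chromosome 19, include enzymes that oxidise arachidonic acid. Of 11 members 4 were tested and 1 rose, against 1.1% of all genes. Cyp2c66 measured 14.8, 17.2 and 18.6 FPKM in lenvatinib libraries, against 8.88, 7.49 and 7.86 FPKM in DMSO libraries. The groups were well apart. Its means were 16.8 ± 1.93 FPKM in lenvatinib colon and 8.08 ± 0.719 FPKM in DMSO colon (SD, n = 3 each), with a log2 fold change of 0.97 (SE 0.104) and a limma adjusted p of 0.0106. Of its 50-base stretches 20.4% are shared with Cyp2c65, which was more abundant, and the sources used here do not give how such reads were counted.

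Cyp2c65 measured 219, 244 and 239 FPKM in lenvatinib libraries, against 201, 208 and 214 FPKM in DMSO libraries. The groups did not overlap but were close, and the log2 fold change of 0.17 did not pass (limma adjusted p = 0.207). Cyp2c55 measured 770, 2497 and 2546 FPKM in lenvatinib libraries, against 967, 1224 and 1252 FPKM in DMSO libraries. Lenvatinib 1 lay below every DMSO library and lenvatinib 2 and 3 lay far above them. The means were 1938 ± 1011 FPKM in lenvatinib colon and 1147 ± 157 FPKM in DMSO colon (SD, n = 3 each). The log2 fold change was 0.58 (SE 0.470, limma adjusted p = 0.467). Without lenvatinib 1 it was 1.15 (limma adjusted p = 0.00221), in the fit that passed 38.0% of all genes. Cyp2c68 measured 0.830, 2.05 and 2.97 FPKM in lenvatinib libraries, against 0.591, 0.829 and 0.675 FPKM in DMSO libraries, with a limma adjusted p of 0.206. It shares 43.3% of its 50-base stretches with other P450 transcripts, most of them with Cyp2c40.

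Among the remaining CYP2 genes, Cyp2s1 rose. It encodes an enzyme of epithelia outside the liver whose gene responds to the aryl hydrocarbon receptor. Cyp2s1 measured 30.9, 32.9 and 30.8 FPKM in lenvatinib libraries, against 18.2, 22.7 and 22.6 FPKM in DMSO libraries. The groups did not overlap, and DMSO 1 was lowest. The means were 31.5 ± 1.21 FPKM in lenvatinib colon and 21.2 ± 2.60 FPKM in DMSO colon (SD, n = 3 each). The log2 fold change was 0.56 (SE 0.0974) with a limma adjusted p of 0.04997, so the call stood at the threshold itself, and it was lost in 12 of 17 other settings.

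Cyp2e1, which oxidises ethanol and small solvents, measured 5.50, 9.98 and 10.6 FPKM in lenvatinib libraries, against 2.82, 3.31 and 3.67 FPKM in DMSO libraries. The groups did not overlap, but the log2 fold change of 1.14 did not pass (limma adjusted p = 0.0738). Cyp2j6, a fatty acid epoxygenase, measured 9.82, 15.3 and 15.4 FPKM in lenvatinib libraries, against 11.4, 10.9 and 10.8 FPKM in DMSO libraries, with a limma adjusted p of 0.402. Cyp2w1, known from developing gut and from colorectal tumours, measured 2.19, 6.96 and 7.22 FPKM in lenvatinib libraries, against 3.14, 6.51 and 7.10 FPKM in DMSO libraries (limma adjusted p = 0.909). In Cyp2w1 the low library of each group was library 1, and the sign of its fold change turned when a library was left out.

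**Figure D3:**
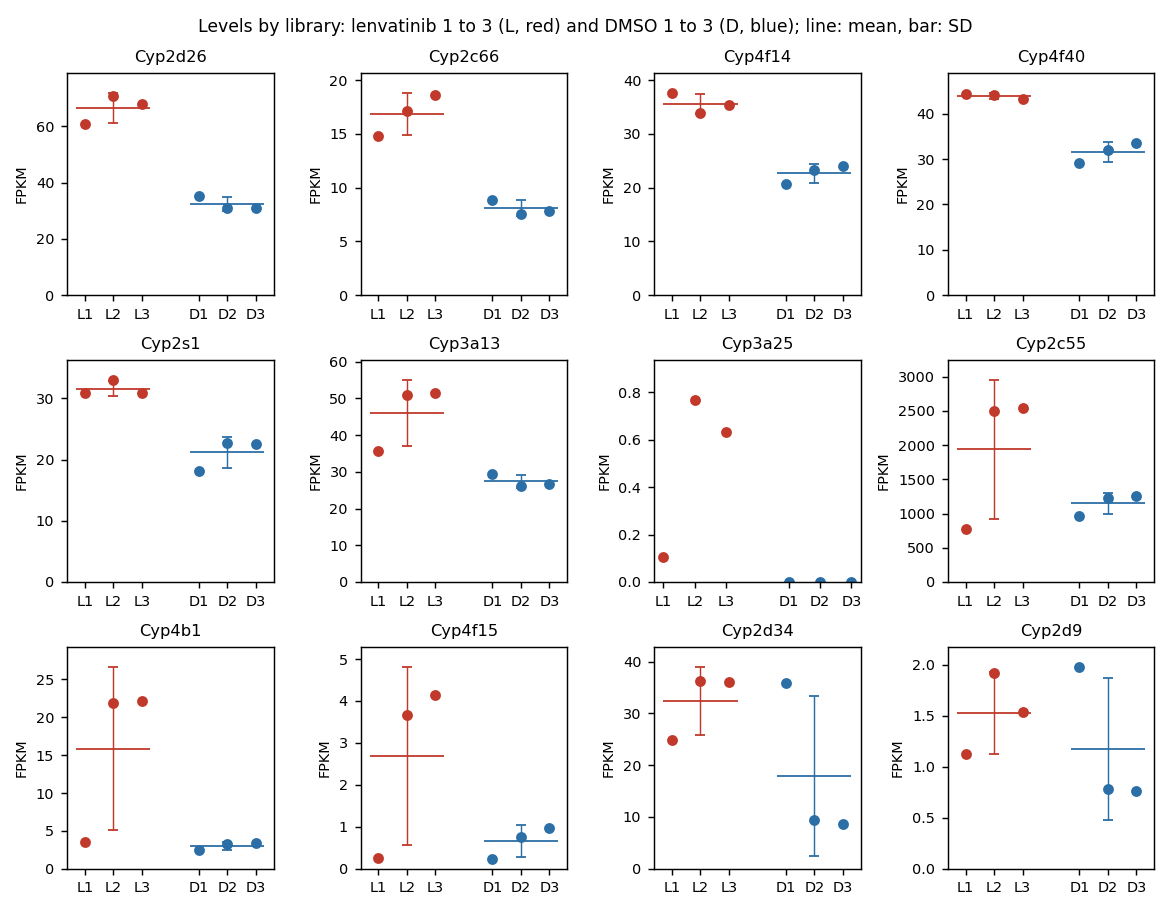
Level in FPKM of 12 P450 genes in lenvatinib 1 to 3 (L1 to L3, red) and DMSO 1 to 3 (D1 to D3, blue), with the mean as a line and the SD as a bar, except Cyp3a25, which was listed at 0 in DMSO and is shown as points. The 5 genes that passed have no overlap between groups, Cyp2c55 and Cyp4f15 are low in lenvatinib 1, and Cyp2d34 and Cyp2d9 are high in DMSO 1.

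The CYP4 family has enzymes that hydroxylate fatty acids and eicosanoids near the end of the chain. Of its 13 members 8 were tested and 2 rose, against 1.1% of all genes. Cyp4f14, which inactivates leukotriene B4 in mice, measured 37.5, 33.9 and 35.3 FPKM in lenvatinib libraries, against 20.7, 23.2 and 24.0 FPKM in DMSO libraries. No library of one group reached the other group, and lenvatinib 1 was here the highest. Its means of 35.6 ± 1.85 FPKM in lenvatinib colon and 22.7 ± 1.72 FPKM in DMSO colon (SD, n = 3 each) gave a log2 fold change of 0.63 (SE 0.0767), with a limma adjusted p of 0.0162. Cyp4f40, from the same cluster on chromosome 17, measured 44.3, 44.2 and 43.2 FPKM in lenvatinib libraries, against 29.2, 32.0 and 33.5 FPKM in DMSO libraries. The lenvatinib libraries were nearly equal and all above DMSO. The means were 43.9 ± 0.607 FPKM in lenvatinib colon and 31.5 ± 2.19 FPKM in DMSO colon (SD, n = 3 each). The log2 fold change was 0.47 (SE 0.0668) with a limma adjusted p of 0.0271.

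The other CYP4 genes did not pass. Cyp4b1, an enzyme of fatty acids and furans best known from lung, measured 3.47, 22.0 and 22.2 FPKM in lenvatinib libraries, against 2.42, 3.28 and 3.40 FPKM in DMSO libraries. The groups did not overlap, with lenvatinib 1 just above DMSO 3. Its log2 fold change of 1.74 (SE 0.642, limma adjusted p = 0.199) was 2.53 without lenvatinib 1 (limma adjusted p = 0.000287). That fit passed 38.0% of all genes. Cyp4f15 measured 0.253, 3.67 and 4.13 FPKM in lenvatinib libraries, against 0.231, 0.757 and 0.971 FPKM in DMSO libraries (limma adjusted p = 0.337). Here lenvatinib 1 lay within the DMSO range. Cyp4f13 measured 17.1, 25.3 and 24.6 FPKM in lenvatinib libraries, against 17.1, 18.5 and 18.1 FPKM in DMSO libraries (limma adjusted p = 0.299). Cyp4v3, the mouse relative of human CYP4V2, a fatty acid hydroxylase linked to a retinal disease, measured 4.75, 6.33 and 6.57 FPKM in lenvatinib libraries, against 5.03, 4.12 and 3.95 FPKM in DMSO libraries (limma adjusted p = 0.207). Lenvatinib 2 and 3 exceeded every DMSO library in both. Cyp4f16 measured 17.4, 21.0 and 21.4 FPKM in lenvatinib libraries, against 19.5, 21.9 and 20.7 FPKM in DMSO libraries (limma adjusted p = 0.737).

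Cyp4f18 went the other way in its values. It encodes the leukotriene B4 hydroxylase of mouse neutrophils and other myeloid cells, and lies on chromosome 8. Cyp4f18 measured 3.27, 1.29 and 1.36 FPKM in lenvatinib libraries, against 3.97, 3.49 and 2.85 FPKM in DMSO libraries. Lenvatinib 1 lay within the DMSO range, and the log2 fold change of -0.63 did not pass (limma adjusted p = 0.224). Without lenvatinib 1 it was -0.93 (limma adjusted p = 0.00363), in the fit that passed 38.0% of all genes. Of 10 macrophage markers 8 fell, against 0.934% of all genes. Their summed levels were 155 to 207 FPKM in lenvatinib libraries and 352 to 399 FPKM in DMSO libraries. The part of these cells in the Cyp4f18 values was not tested.

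In 19 of 25 tested members lenvatinib 2 and 3 both lay above every DMSO library, against 19.7% of all genes. In 11 of these 19 (57.9%) lenvatinib 1 lay there too, and in 8 it was within or below the DMSO range. Over all genes lenvatinib 1 lay there too in 1178 of 2318 (50.8%), a share close to that of the members.

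**Figure D4:**
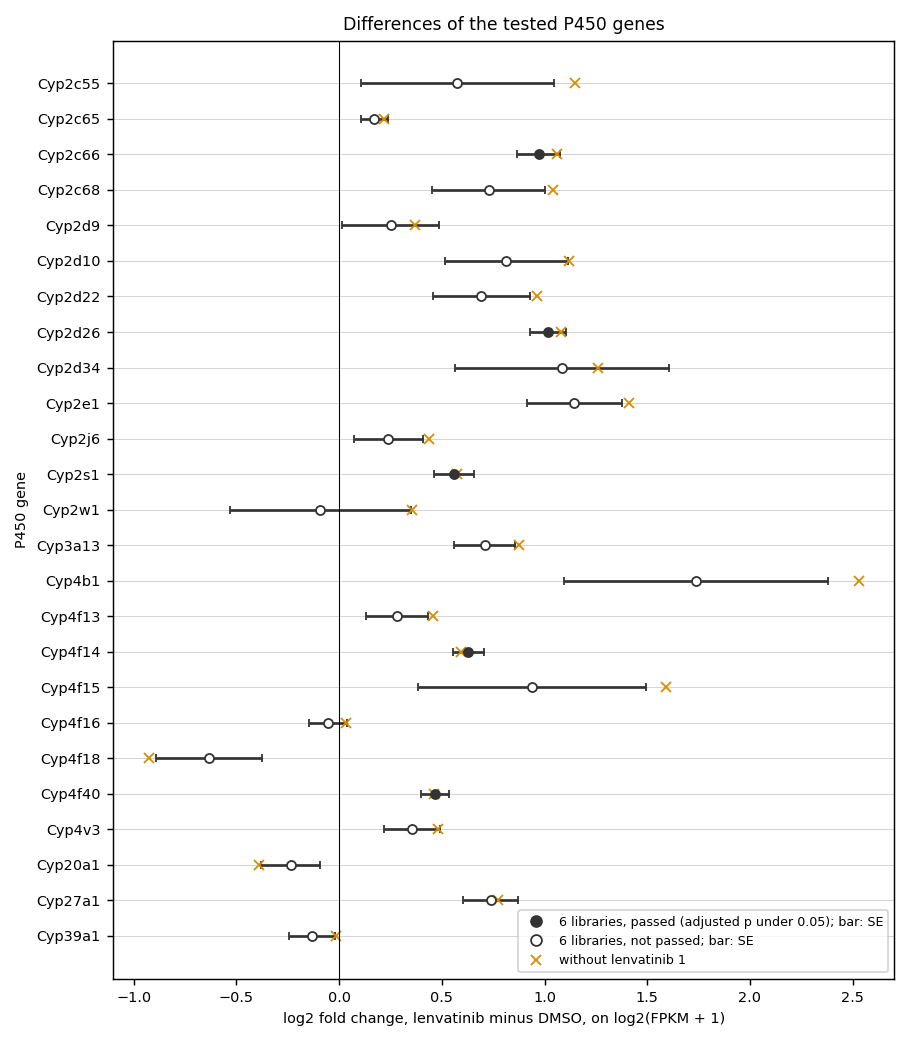
Log2 fold change, lenvatinib minus DMSO, of the 25 tested P450 genes with its SE (filled points passed), and the same without lenvatinib 1 (crosses). The 5 that passed have short bars and crosses near the points, while Cyp4b1, Cyp4f15 and Cyp2c55 shift up without lenvatinib 1 and Cyp4f18 shifts down.

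Promoter windows are shown for the 5 genes that rose and for Cyp3a13, because the comparison turns on these genes and motifs of receptors that control P450 genes were searched in this stretch. The sequences are from RefSeq, build GRCm38.p6, and run from 250 bases before to 50 bases after the start, 5′ to 3′ on the gene's strand. Capitals mark CAAAG on either strand, the core letters shared by the motifs of HNF4 and of TCF/LEF factors.
Cyp2d26: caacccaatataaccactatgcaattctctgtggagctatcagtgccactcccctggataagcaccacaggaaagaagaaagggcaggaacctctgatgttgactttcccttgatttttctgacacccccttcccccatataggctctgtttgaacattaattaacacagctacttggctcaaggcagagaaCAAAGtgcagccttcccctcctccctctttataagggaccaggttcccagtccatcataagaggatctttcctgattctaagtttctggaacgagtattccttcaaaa
Cyp2c66: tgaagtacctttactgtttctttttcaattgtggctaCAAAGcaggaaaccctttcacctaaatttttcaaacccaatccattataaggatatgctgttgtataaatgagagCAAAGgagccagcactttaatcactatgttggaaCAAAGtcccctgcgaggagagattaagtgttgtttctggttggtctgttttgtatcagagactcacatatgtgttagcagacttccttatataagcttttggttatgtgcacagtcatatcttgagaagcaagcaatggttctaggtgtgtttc
Cyp4f14: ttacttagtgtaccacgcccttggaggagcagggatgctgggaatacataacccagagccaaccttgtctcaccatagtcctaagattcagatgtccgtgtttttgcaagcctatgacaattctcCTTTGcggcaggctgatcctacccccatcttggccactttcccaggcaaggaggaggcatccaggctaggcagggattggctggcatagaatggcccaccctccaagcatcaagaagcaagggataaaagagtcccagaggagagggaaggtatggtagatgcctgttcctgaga
Cyp4f40: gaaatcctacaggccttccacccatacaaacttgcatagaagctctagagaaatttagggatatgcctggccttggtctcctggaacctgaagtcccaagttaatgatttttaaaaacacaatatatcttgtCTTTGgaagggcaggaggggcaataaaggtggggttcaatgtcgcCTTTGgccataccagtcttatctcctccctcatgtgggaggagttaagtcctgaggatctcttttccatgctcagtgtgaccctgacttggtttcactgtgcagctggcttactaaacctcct
Cyp2s1: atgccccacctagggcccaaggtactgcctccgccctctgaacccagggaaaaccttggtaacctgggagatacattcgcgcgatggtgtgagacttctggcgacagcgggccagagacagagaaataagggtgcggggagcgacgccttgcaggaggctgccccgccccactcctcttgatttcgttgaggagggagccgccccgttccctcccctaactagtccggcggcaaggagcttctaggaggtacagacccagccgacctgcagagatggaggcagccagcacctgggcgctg
Cyp3a13: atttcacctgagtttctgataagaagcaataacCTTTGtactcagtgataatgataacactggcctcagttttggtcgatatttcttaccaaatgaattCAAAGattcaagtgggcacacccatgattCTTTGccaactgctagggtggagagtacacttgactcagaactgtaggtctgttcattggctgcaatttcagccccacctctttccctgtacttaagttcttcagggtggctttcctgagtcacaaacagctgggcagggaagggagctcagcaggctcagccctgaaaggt
The windows are chr15:82794196-82794495 (minus strand) for Cyp2d26, chr19:39113648-39113947 (plus strand) for Cyp2c66 and chr17:32917307-32917606 (minus strand) for Cyp4f14. Those of the other genes are chr17:32658636-32658935 (plus strand) for Cyp4f40, chr7:25816476-25816775 (minus strand) for Cyp2s1 and chr5:137921570-137921869 (minus strand) for Cyp3a13.

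A window was found for 56 of the 70 members. Every motif was searched on both strands. CAAAG was in 4 of the 5 windows of genes that rose (none in Cyp2s1). It was in 49 of the 56 member windows (87.5%) and in 54.0% of all 27025 promoters of the same length. The TATA box letters TATAAA were in the windows of Cyp2c66 and, on the opposite strand as TTTATA, of Cyp2d26. On either strand they were in 23 of 56 member windows (41.1%) and in 14.2% of all promoters. The nuclear receptor letters AGGTCA were in none of the 5 windows, in 0 of the 22 windows of tested members, in 11 of 56 member windows (19.6%) and in 16.0% of all promoters. GCGTG, the core of the aryl hydrocarbon receptor motif, was in the window of Cyp4f14, in 15 of 56 (26.8%) and in 32.5% of all promoters. The inverted repeat that FXR binds, a pair of such sites facing each other a base apart, was in 0 of 56 and in 3 of 27025 promoters (0.0111%). P450 genes of a cluster arose by duplication and share sequence, so these windows are not independent, and a match of letters is a description of the window only.

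P450 genes of sterol, steroid, vitamin and aryl hydrocarbon metabolism were low or did not pass. Cyp27a1, the mitochondrial sterol hydroxylase of bile acid synthesis, measured 8.84, 9.62 and 9.43 FPKM in lenvatinib libraries, against 6.60, 4.56 and 4.56 FPKM in DMSO libraries. The groups did not overlap, and the log2 fold change of 0.74 did not pass (limma adjusted p = 0.0561). Of 17 other settings it passed in 2, without DMSO 1 (limma adjusted p = 0.0115) or without lenvatinib 1 (limma adjusted p = 0.0133). Those fits passed 2.29% and 38.0% of all genes. In the remaining 15 settings it did not pass, with a limma adjusted p of up to 0.776. Cyp39a1, an oxysterol hydroxylase, measured 5.68, 7.64 and 7.35 FPKM in lenvatinib libraries, against 7.91, 7.68 and 7.19 FPKM in DMSO libraries (limma adjusted p = 0.483). Its groups overlapped. Cyp20a1, whose substrate is not established, measured 7.78, 5.47 and 5.29 FPKM in lenvatinib libraries, against 8.09, 6.94 and 7.08 FPKM in DMSO libraries (limma adjusted p = 0.349).

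Of the 45 members under the filter 30 stayed under 0.1 FPKM throughout, among them 5 listed at 0 in every library (Cyp1a2, Cyp21a1, Cyp26c1, Cyp2c29 and Cyp2c70). All lenvatinib libraries lay above all DMSO libraries in 3 of the 45, one of them Cyp3a25, and below them in 1. Among all genes above 0 under the filter these shares were 6.78% and 5.88%. Those shares leave out genes at 0 throughout, whereas the 45 include 5 such members, which cannot separate. The count on the higher side was close to its share. Cyp26b1, which degrades retinoic acid, measured 0.896, 1.31 and 1.35 FPKM in lenvatinib libraries, against 0.557, 0.696 and 0.664 FPKM in DMSO libraries. Cyp7b1, another oxysterol hydroxylase, measured 1.23, 0.725 and 0.837 FPKM in lenvatinib libraries, against 0.659, 0.642 and 0.674 FPKM in DMSO libraries. Both were higher in every lenvatinib library, and at a filter of 0.1 FPKM neither passed (limma adjusted p = 0.117 for Cyp26b1 and 0.299 for Cyp7b1). Cyp11a1, which cleaves the cholesterol side chain in steroid synthesis, measured 0.04995, 0.00816 and 0.0247 FPKM in lenvatinib libraries, from 6, 1 and 3 reads, against 0.235, 0.137 and 0.237 FPKM in DMSO libraries, from 28, 17 and 29 reads. It was lower in every lenvatinib library and did not pass at that filter (limma adjusted p = 0.0964). The 10 mast cell markers summed to 6.86 to 7.59 FPKM in lenvatinib libraries and 216 to 235 FPKM in DMSO libraries. Of 6 tested ones 5 fell, against 0.934% of all genes. These 5, Mcpt1, Mcpt2, Mcpt4, Cpa3 and Fcer1a, had lenvatinib means under 1 FPKM and entered the test through their DMSO level. Fcer1a and Ms4a2 were listed at 0 in lenvatinib libraries. Whether mast cells bear on Cyp11a1 was not tested.

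The named members of aryl hydrocarbon and vitamin D metabolism overlapped between groups. Cyp1a1, the classical target of the aryl hydrocarbon receptor, measured 0.422, 0.331 and 0.463 FPKM in lenvatinib libraries, against 0.208, 0.625 and 0.636 FPKM in DMSO libraries. Cyp1b1 measured 1.15, 0.312 and 0.310 FPKM in lenvatinib libraries, against 0.428, 0.337 and 0.293 FPKM in DMSO libraries. Cyp1a1 was lowest in DMSO 1, and Cyp1b1 was highest in lenvatinib 1. Cyp24a1, which inactivates vitamin D, measured 0.00789, 0.332 and 0.164 FPKM in lenvatinib libraries, against 0.00795, 0.0457 and 0.0775 FPKM in DMSO libraries. Cyp2r1, which activates vitamin D, measured 0.389, 0.425 and 0.340 FPKM in lenvatinib libraries, against 0.317, 0.593 and 0.603 FPKM in DMSO libraries. Outside the symbol rule, Cyp51, the sterol demethylase of cholesterol synthesis, measured 35.0, 39.8 and 36.0 FPKM in lenvatinib libraries, against 41.1, 39.1 and 38.3 FPKM in DMSO libraries (limma adjusted p = 0.416).

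Genes that work with P450 enzymes were counted in lists. Of the redox partners 0 of 12 tested passed with limma, against 2.03% of all genes, and 0 with voom. At an unadjusted limma p under 0.05 there were 2, Cyb5a higher and Pgrmc2 lower, against 22.0% of all genes. Por, the reductase, measured 52.9, 83.4 and 88.8 FPKM in lenvatinib libraries, against 52.7, 54.3 and 54.6 FPKM in DMSO libraries (limma adjusted p = 0.247). Cyb5a, encoding cytochrome b5, measured 121, 158 and 160 FPKM in lenvatinib libraries, against 101, 114 and 121 FPKM in DMSO libraries (limma adjusted p = 0.181). In both genes lenvatinib 2 and 3 lay above every DMSO library, while lenvatinib 1 was within the DMSO range in Por and level with DMSO 3 in Cyb5a.

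Of 17 tested nuclear receptors and aryl hydrocarbon receptor genes 1 rose, against 1.1% of all genes. Nr1h4, encoding the bile acid receptor FXR, measured 62.1, 54.2 and 55.5 FPKM in lenvatinib libraries, against 32.9, 32.1 and 33.3 FPKM in DMSO libraries. The groups were wide apart, with a log2 fold change of 0.79 (SE 0.0687) and a limma adjusted p of 0.00539. The call was lost with libraries 2 and 3 averaged (limma adjusted p = 0.265) and without DMSO 2 or DMSO 3 (limma adjusted p = 0.0507 and 0.0503). Nr1i2, encoding the xenobiotic receptor PXR that drives Cyp3a genes, measured 24.8, 31.1 and 30.7 FPKM in lenvatinib libraries, against 21.0, 20.2 and 21.0 FPKM in DMSO libraries. Its groups did not overlap, and the log2 fold change of 0.45 did not pass (limma adjusted p = 0.0827). Ahr, the aryl hydrocarbon receptor gene, measured 3.68, 3.61 and 3.68 FPKM in lenvatinib libraries, against 5.30, 4.51 and 4.30 FPKM in DMSO libraries (limma adjusted p = 0.143). It was lower in every lenvatinib library. Ahrr, which encodes a repressor of that receptor and is one of its targets, was under the filter, with 0.302, 0.362 and 0.392 FPKM in lenvatinib libraries, against 0.713, 0.692 and 0.775 FPKM in DMSO libraries. It was lower in every lenvatinib library and passed at a filter of 0.1 FPKM (limma adjusted p = 0.0460).

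Of 4 tested bile acid partners 3 rose, against 1.1% of all genes. Fabp6, the ileal bile acid binding protein and an FXR target, measured 161, 160 and 148 FPKM in lenvatinib libraries, against 1.44, 2.28 and 2.27 FPKM in DMSO libraries, with a log2 fold change of 5.73 and a limma adjusted p of 2.01e-05, and it passed in all 17 other settings. Slc10a2, the ileal bile acid uptake transporter, had a log2 fold change of 2.01 (limma adjusted p = 0.0346), and Slc51a, a subunit of the export transporter, of 1.02 (limma adjusted p = 0.0149). Both calls were lost with libraries 2 and 3 averaged (limma adjusted p = 0.63 for Slc10a2 and 0.299 for Slc51a) or as a random block (0.1 and 0.0502), and without DMSO 2, DMSO 3 or lenvatinib 2. Slc10a2 was also lost without lenvatinib 3, with no filter and with voom. Fabp6 and Slc10a2 are also on the list of small intestine markers. Of 17 tested small intestine markers 11 rose, against 1.1% of all genes. In 16 of the 17 every lenvatinib library lay above every DMSO library, against 10.0% of all genes. Of the 11, Apoa1, Sis, Naaladl1, Mptx2, Mmp7, Defa24 and Defa30 had DMSO means under 1 FPKM. They entered the test through their lenvatinib level, so both counts lean on that selection. The 23 markers in the table summed to 731 to 1102 FPKM in lenvatinib libraries and 476 to 621 FPKM in DMSO libraries. None was at 0 in a whole group. Fabp2 made up much of these sums and overlapped between groups. It measured 302 to 479 FPKM in lenvatinib libraries and 406 to 540 FPKM in DMSO libraries. Defa24 measured 94.8, 139 and 124 FPKM in lenvatinib libraries, against 1.13, 0 and 0 FPKM in DMSO libraries. Colon markers summed to 9729 to 14030 FPKM in lenvatinib libraries and 12197 to 13811 FPKM in DMSO libraries. Of these, 1 of 14 tested passed as lower and 0 as higher, against 0.934% and 1.1% of all genes. The lower one, Ly6g6c, had a lenvatinib mean of 0.456 FPKM and entered the test through its DMSO level. The part of such cells or tissue in the P450 differences was not tested.

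Of 9 tested eicosanoid and epoxide enzymes 1 fell, against 0.934% of all genes. Alox5, the lipoxygenase that starts leukotriene synthesis, measured 0.361, 0.420 and 0.540 FPKM in lenvatinib libraries, against 2.24, 1.40 and 1.70 FPKM in DMSO libraries. Its mean was 0.440 FPKM in lenvatinib colon and 1.78 FPKM in DMSO colon, so it entered the test through its DMSO level. It was lower in every lenvatinib library, with a log2 fold change of -0.94 (SE 0.130) and a limma adjusted p of 0.0255. The call was lost with libraries 2 and 3 averaged (limma adjusted p = 0.373) or as a random block (0.259), after quantile normalization (0.0719), with no filter (0.0501) and without DMSO 2, DMSO 3, lenvatinib 2 or lenvatinib 3 (0.0673 to 0.141). Alox5 is a gene of myeloid and mast cells, and 8 of 10 macrophage markers and 5 of 6 tested mast cell markers fell, with the sums given above. Those 5 mast cell markers entered the test through their DMSO level. The part of these cells in the Alox5 values was not tested. Ephx2, the soluble epoxide hydrolase that opens the epoxides made by Cyp2c and Cyp2j enzymes, measured 6.99, 13.1 and 12.7 FPKM in lenvatinib libraries, against 5.18, 7.17 and 7.14 FPKM in DMSO libraries (limma adjusted p = 0.210). Of 3 tested drug transporters 0 passed with limma, against 2.03% of all genes, and 0 with voom. At an unadjusted p under 0.05 there were also 0 with either, against 22.0% of all genes with limma. Abcb1a, the P-glycoprotein gene, measured 77.2, 168 and 165 FPKM in lenvatinib libraries, against 93.6, 100 and 100 FPKM in DMSO libraries (limma adjusted p = 0.439).

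**Figure D5:**
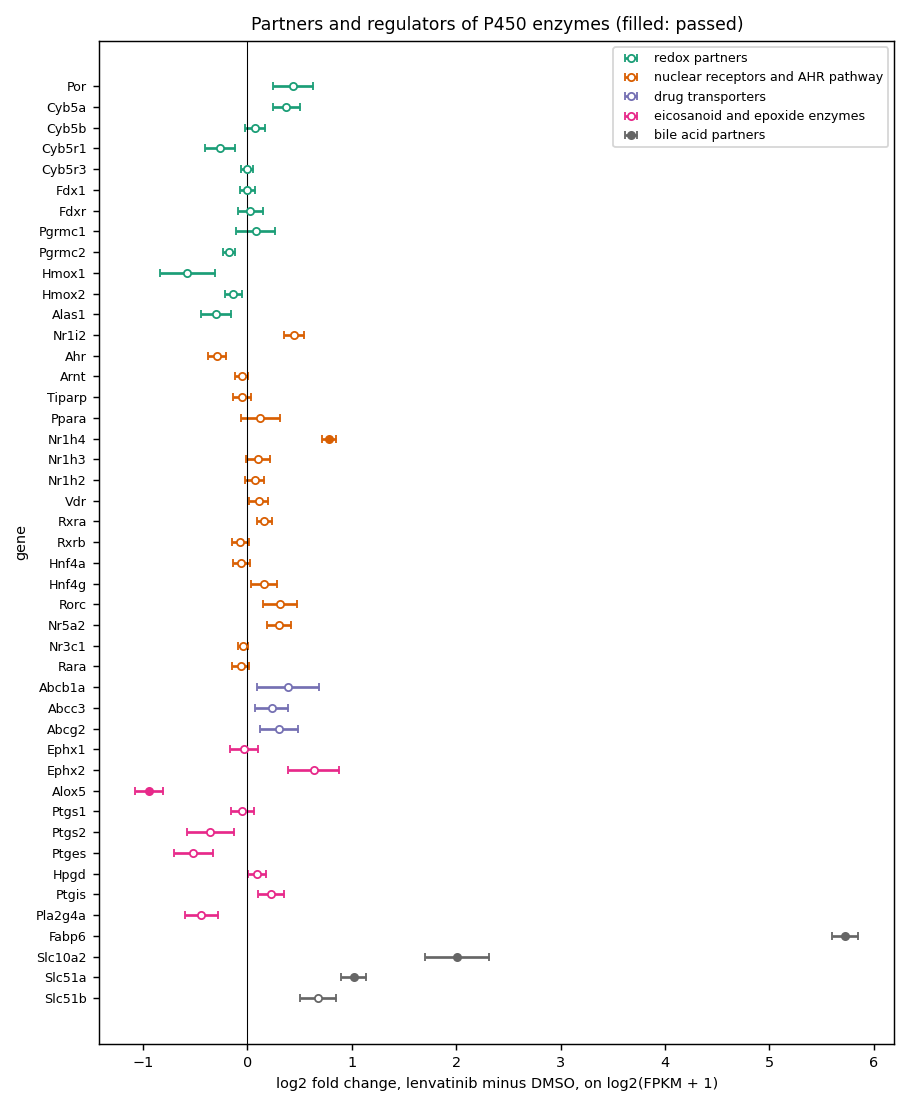
Log2 fold change, lenvatinib minus DMSO, with its SE, of the tested partner and regulator genes, grouped by list (filled points passed). Fabp6, Slc10a2, Slc51a and Nr1h4 are the filled points on the higher side and Alox5 the filled point on the lower side.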

How the data were processed

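The deposited table holds FPKM values, which the authors computed for 25339 genes in 6 libraries of mouse colon. Per the submitters' processing notes, HTSeq was used with the build GRCm39. The sources used here do not give versions, aligner, annotation or strand setting. Whole reads, the smallest whole numbers that match the FPKM steps within 0.01 reads, came out for 100.0% of the genes above 0. The match is a check only across libraries. For 2092 of the 23951 genes above 0, seen in 1 library, any number matches and reads are not recovered, so totals are somewhat low.

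Genes averaging 1 FPKM or more were tested on log2(FPKM + 1), a pseudocount of 1, with limma 3.58.1 in R 4.3.3, as a two-sided test, 3 libraries against 3, with Benjamini-Hochberg adjustment over 11774 genes and a threshold of 0.05. The variance prior was trended and robust. Alternatives covered the pseudocount, filter, scaling, prior, blocks, libraries left out and voom on the recovered reads, which called 262 genes.

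The members, lists and alternatives were chosen with earlier results of these data known. Named were all Cyp3a genes, those that passed, up to 20 by p, the 8 most abundant, non-overlapping low genes and genes of fixed roles, and of other lists those that passed and the 3 lowest p. Cyp2d9, Cyp2w1 and Cyp4f16 were added to complete the tested members. Ahrr, Ephx2, Car1, Alb, Hoxb13, Ddx3y, Kdm5d, Uty, Xist, Fabp2 and Defa24 were chosen after their values were seen. Of the partner and marker lists, some genes that the rule selects are counted but not named. Shared stretches of 50 bases were counted in GENCODE vM21 transcripts.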

Additional observations from a re-analysis of the deposited data

How the results depend on the processing

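The 25 tested P450 genes were refitted under 17 alternatives each, 425 values in all. Of these 367 kept their direction and their side of the threshold, 36 were weaker, 17 newly passed and 5 reversed. Of the 17, 15 arose without lenvatinib 1 and 2 without DMSO 1. With all libraries the log2 fold changes of Cyp4f16 and Cyp2w1 were -0.05 and -0.09. Cyp4f16 reversed to 0.00839 with voom, and over the libraries left out its log2 fold change ran from -0.10 to 0.0356, and that of Cyp2w1 from -0.40 to 0.36. With no filter, calls went to 140 of all genes, 3 P450, 1 Cyp4 and 3 partner genes (239, 5, 2 and 5 in the text). With the replicate number as a block they were 29, 0, 0 and 1, and 0 for Cyp2c and Cyp2j together, which had 1. Deviations of same-numbered libraries correlated at r = -0.196, -0.159 and -0.151, none over 0.1, so the numbers were not taken to pair the samples. These r rest on the same contrast of library 1 with 2 and 3 and are not separate evidence. With libraries 2 and 3 averaged calls were 3, 0, 0, 1 and 0 in the same order, and with them as a random block 46, 1, 0, 2 and 0. Leaving out a library gave 45 to 4479 calls in all, 1 to 20 P450, 0 to 1 Cyp3a, 0 to 5 Cyp2c and Cyp2j, 0 to 7 Cyp4 and 1 to 22 partner genes. The cause was not tested. Members near 0 rest on few reads, which limits the precision of their folds.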
